A study of Mus musculus with 9 samples.

Results

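The interleukin-1 family and the inflammasome were followed in injured mouse leg muscle through 10 genes, chosen by symbol from the 55335 genes of the deposited count and FPKM tables. They are the ligands Il1a, Il1b, Il18 and Il33, the receptor antagonist Il1rn, the receptors Il1r1, Il1rap and Il1rl1, the inflammasome sensor Nlrp3 and the protease Casp1. All 10 were found, each in 1 row of both tables, and all 10 passed the filter on low counts. Leg muscle RNA of WT animals was sequenced in 9 libraries, and the labels spell the strain c57b6l. Every animal carried the same injury, a hindlimb model that the labels describe by both suspension and ischemia. Of the libraries, 3 came from mice given aspirin together with a peptide hydrogel (hydrogel libraries), 3 from mice given aspirin alone and 3 from untreated controls. The labels do not say that each library is a separate animal, so p-values measure only the spread between these samples, which may be technical. The labels give no age, dose, route or time after injury, and uninjured muscle and hydrogel without aspirin were not analysed here.

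Cytokines of the interleukin-1 family start and amplify sterile inflammation. IL-1 alpha and IL-1 beta bind the same receptor, Il1r1, which signals only once it has recruited the accessory protein Il1rap; the antagonist Il1rn occupies Il1r1 without recruiting it. IL-1 beta and IL-18 are made as inactive precursors, and caspase-1, switched on by inflammasome sensors such as NLRP3, cuts them into their active forms, while IL-33 is stored in nuclei and released from damaged cells to act through Il1rl1. In damaged muscle, neutrophils and monocytes are known sources of IL-1 beta, and resident stromal cells of IL-33.

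Total counts ran from 32197791 to 48170537 per library. Aspirin replicate 1 stood apart from the other libraries, with a median Spearman correlation of 0.780 with them over 14572 genes, against 0.929 to 0.954 for the other 8. Summed muscle fibre markers (8 genes, among them Acta1 and Ckm) were at 20477 CPM there and at 96636 to 299114 CPM in the other libraries. CPM are counts scaled to library size, in units of 1e6 counts. Control replicate 1 held 133 CPM of the 7 keratinocyte markers, which summed to 0.772 to 2.68 CPM elsewhere. Lymphocyte markers (10 genes) summed to 750 CPM in Aspirin replicate 1 and 307 CPM in Control replicate 1, against 8.17 to 113 CPM in the other 7 libraries. The leading fold changes are also given without Aspirin replicate 1.

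The start regions of both IL-1 ligands, their antagonist and the sensor are shown here, as the genes that make, block and set off the IL-1 beta signal. Each is the RefSeq window (GRCm38.p6) from 250 bases before to 50 bases after the most upstream start, read 5′ to 3′ on the gene's strand. Capitals mark matches to an AP-1 motif (TGANTCA) in Il1a and Il1rn and to the NF-kB consensus in Nlrp3.
Il1a, chr2:129309923-129310222, minus strand: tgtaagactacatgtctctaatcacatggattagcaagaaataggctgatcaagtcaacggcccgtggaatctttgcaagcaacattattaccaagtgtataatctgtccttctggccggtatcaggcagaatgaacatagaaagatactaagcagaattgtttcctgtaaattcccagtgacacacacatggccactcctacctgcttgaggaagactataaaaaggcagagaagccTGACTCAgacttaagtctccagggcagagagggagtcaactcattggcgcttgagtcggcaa
Il1b, chr2:129371090-129371389, minus strand: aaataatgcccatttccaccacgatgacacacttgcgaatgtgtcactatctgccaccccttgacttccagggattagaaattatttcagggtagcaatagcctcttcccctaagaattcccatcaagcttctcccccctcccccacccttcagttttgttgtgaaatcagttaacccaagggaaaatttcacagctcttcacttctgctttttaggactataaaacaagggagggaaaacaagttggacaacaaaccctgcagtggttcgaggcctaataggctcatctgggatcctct
Il1rn, chr2:24336610-24336909, plus strand: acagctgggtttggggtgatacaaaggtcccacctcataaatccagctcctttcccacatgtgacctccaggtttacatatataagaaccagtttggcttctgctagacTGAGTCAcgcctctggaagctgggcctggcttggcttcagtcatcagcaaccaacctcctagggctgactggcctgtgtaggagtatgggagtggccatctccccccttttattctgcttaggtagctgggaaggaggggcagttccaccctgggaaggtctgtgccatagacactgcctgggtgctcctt
Nlrp3, chr11:59541319-59541618, plus strand: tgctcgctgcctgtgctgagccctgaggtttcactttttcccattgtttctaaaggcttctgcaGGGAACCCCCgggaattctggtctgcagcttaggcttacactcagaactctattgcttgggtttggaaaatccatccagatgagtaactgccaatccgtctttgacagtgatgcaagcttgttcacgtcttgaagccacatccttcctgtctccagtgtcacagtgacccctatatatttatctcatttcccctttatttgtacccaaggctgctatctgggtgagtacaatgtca
Both strands were searched for 4 motifs: AP-1, the NF-kB consensus, the cAMP response element (TGACGTCA) and the PU.1 motif (AGGAAGT). The AP-1 match began 12 bases before the start in Il1a (position -12) and at -141 in Il1rn. The NF-kB match in Nlrp3 began at -186. The windows at other starts of Il1rn and Nlrp3, not shown, held no match to any of the 4 motifs. Among all 32851 windows of the same length, 7.81% held the AP-1 motif, 8.46% the NF-kB consensus, 1.79% the cAMP response element and 9.35% the PU.1 motif. The Il1b window held none of these letters.

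Il1b, the main secreted ligand of the family, had the widest range on the log2 scale among the 9 genes with counts in every library (chromosome 2, 129364570 to 129371139, minus strand of mm10; ENSMUSG00000027398). It stood at 0.968, 0.846 and 0.234 CPM in the hydrogel libraries and 28.0, 2.30 and 36.2 CPM in the aspirin libraries, against 2.42, 0.134 and 2.41 CPM in the controls. Aspirin replicates 1 and 3 lay far above all other libraries, whereas Aspirin replicate 2 lay within the control range, so aspirin and control libraries overlapped. Each hydrogel library lay below each aspirin library. Aspirin replicate 3 carries another first code number in its title (10) than Aspirin replicates 1 and 2 (7), and the labels do not say what it marks. Behind these values were 6 counts in Control replicate 2, the lowest library, and 1465 in Aspirin replicate 1. Il1a (chromosome 2, 129299610 to 129309972, minus strand; ENSMUSG00000027399), the ligand that also acts from the surface of damaged cells, was scarce throughout. It was at 0.387, 0.665 and 0 CPM in the hydrogel libraries and 1.79, 0.141 and 1.11 CPM in the aspirin libraries, against 0.684, 0.0670 and 0.233 CPM in the controls. Its high libraries were again Aspirin replicates 1 and 3, and all 3 groups overlapped. No count in Hydrogel replicate 3 places Il1a below 0.1001 CPM there (3 counts in that library, for counting error only). Exons of Il1a share 222 bases with Gm14023 on the opposite strand, which reached 67 counts in a library against at most 94 for Il1a. Whether counting used strand is not given in the sources used here, so Il1a levels are uncertain to that extent.

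Il1rn, the antagonist (chromosome 2, 24336853 to 24351494, plus strand; ENSMUSG00000026981), was at 3.75, 6.11 and 0.567 CPM in the hydrogel libraries and 17.7, 9.51 and 14.98 CPM in the aspirin libraries, against 5.30, 0.826 and 14.0 CPM in the controls. Every hydrogel library lay below every aspirin library, while Control replicate 3 lay inside the aspirin range. The counts are per gene and do not separate the secreted from the intracellular forms of the antagonist. Il33, the alarmin of the family (chromosome 19, 29925114 to 29960718, plus strand; ENSMUSG00000024810), was at 2.35, 5.65 and 2.34 CPM in the hydrogel libraries and 18.4, 3.09 and 7.66 CPM in the aspirin libraries, against 7.87, 1.27 and 6.22 CPM in the controls. Aspirin replicate 1 was the highest, and the groups overlapped. Il18 (chromosome 9, 50554827 to 50581840, plus strand; ENSMUSG00000039217), the other substrate of caspase-1, was at 1.86, 3.39 and 1.57 CPM in the hydrogel libraries and 9.25, 3.89 and 2.23 CPM in the aspirin libraries, against 5.23, 2.55 and 2.12 CPM in the controls. Its values overlapped between all groups, with Aspirin replicate 1 and Control replicate 1 at the top.

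The receptors had a smaller ratio of highest to lowest library than the ligands. Il1r1, the signalling receptor for both IL-1 ligands (chromosome 1, 40225080 to 40317257, plus strand; ENSMUSG00000026072), was at 11.6, 18.0 and 23.0 CPM in the hydrogel libraries and 48.1, 26.2 and 31.2 CPM in the aspirin libraries, against 22.5, 35.6 and 16.9 CPM in the controls. Hydrogel and aspirin libraries did not overlap, and the controls overlapped with both. Il1rap, the co-receptor shared by IL-1 and IL-33 (chromosome 16, 26581704 to 26730117, plus strand; ENSMUSG00000022514), was at 3.24, 4.87 and 5.41 CPM in the hydrogel libraries and 14.8, 5.36 and 6.52 CPM in the aspirin libraries, against 6.38, 6.97 and 3.23 CPM in the controls. Aspirin replicate 1 stood alone at the top, and the groups overlapped. Il1rl1, the IL-33 receptor (chromosome 1, 40429570 to 40465415, plus strand; ENSMUSG00000026069), was at 1.4996, 2.15 and 1.84 CPM in the hydrogel libraries and 6.53, 3.35 and 1.94 CPM in the aspirin libraries, against 1.39, 1.99 and 1.19 CPM in the controls. Aspirin replicates 1 and 2 stood above all 6 libraries of the other groups and Aspirin replicate 3 did not. Its soluble decoy and membrane forms are not told apart by counts per gene.

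Nlrp3, the sensor (chromosome 11, 59541568 to 59566956, plus strand; ENSMUSG00000032691), was the only one of the 10 genes whose aspirin libraries lay clear of both other groups. It was at 0.822, 0.846 and 0.300 CPM in the hydrogel libraries and 2.86, 2.01 and 3.17 CPM in the aspirin libraries, against 1.03, 0.313 and 0.785 CPM in the controls. All 3 aspirin libraries, Aspirin replicate 2 included, held more Nlrp3 than any hydrogel or control library. Of all genes tested, 5.54% had aspirin libraries all above the controls, and 8.75% had hydrogel libraries all below the aspirin libraries. The share of genes with both was not computed. Casp1, the protease that matures IL-1 beta and IL-18 (chromosome 9, 5298517 to 5307265, plus strand; ENSMUSG00000025888), was at 6.82, 5.26 and 2.74 CPM in the hydrogel libraries and 26.8, 12.8 and 4.001 CPM in the aspirin libraries, against 9.33, 4.82 and 7.48 CPM in the controls. Aspirin replicates 1 and 2 were the highest, but Aspirin replicate 3 lay below every control. Casp1 and Il1b were thus both high in Aspirin replicate 1 and differed in Aspirin replicates 2 and 3.

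**Figure D1:**
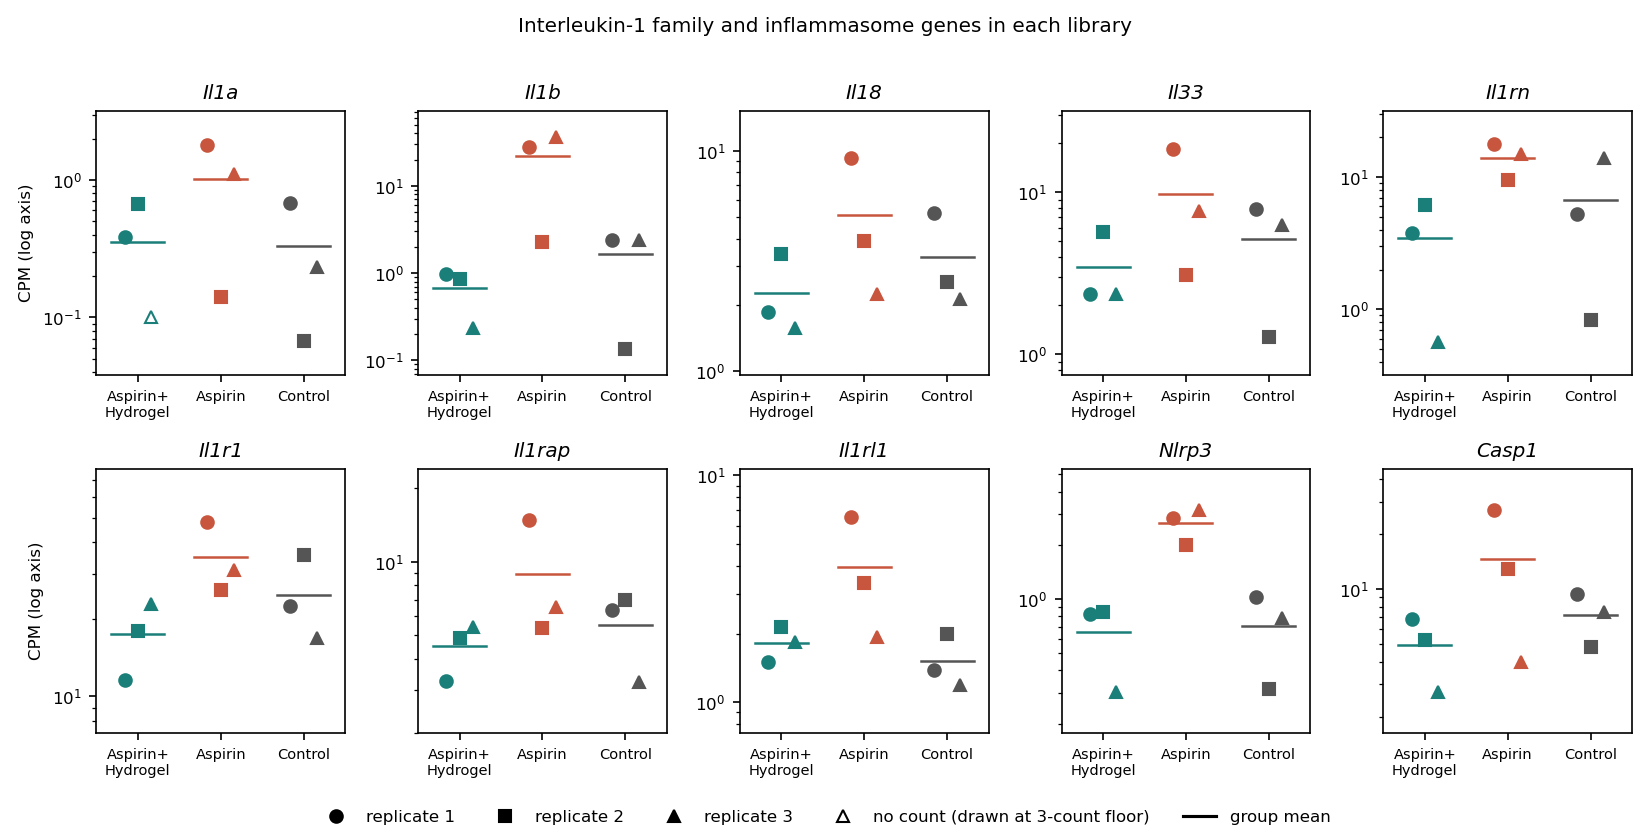
Level of each of the 10 genes in CPM (log axis) in every library, by group (Aspirin+Hydrogel, Aspirin, Control), with the marker shape giving the replicate and a line at the group mean. The 3 aspirin libraries lie above all others for Nlrp3, and 2 of them for Il1b (28.0 and 36.2 CPM); the open symbol for Il1a is a library with no count, drawn at 0.1001 CPM.

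Levels of different genes were compared as FPKM, which correct for gene length. Over the 9 libraries the median was highest for Il1r1 (3.90 FPKM), then Il18 (2.06), Casp1 (1.88), Il33 (1.72), Il1rn (1.06), Il1b (1.01), Il1rap (0.456), Il1rl1 (0.220), Nlrp3 (0.181) and Il1a (0.164 FPKM). The ranges of neighbours in this order overlapped. The length used for each gene is not given in the sources used here, so the order is uncertain to that extent. Il1b took different places in this order in different libraries. It ranked 1 of 10 in Aspirin replicates 1 and 3, at 21.3 and 15.2 FPKM, and 5 to 9 of 10 in the other 7 libraries. Il1r1 ranked 1 or 2 in 8 libraries and 4 in Aspirin replicate 1.

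Aspirin alone was compared with no treatment to see how the drug alters this axis. By edgeR's quasi-likelihood test none of the 10 genes had an adjusted p under 0.05, and neither had any other of the 18259 tested (0%). All 10 had fitted log2 fold changes above 0, with a median of 1.04, beside 0.05 over all genes tested and 54% of those genes above 0. Il1b averaged 22.2 ± 17.7 CPM with aspirin and 1.66 ± 1.32 CPM in the controls (SD, n = 3 each). Its log2 fold change was 3.74 ± 1.18 (SE, 95% interval 1.08 to 6.40, adjusted p = 0.753 by edgeR). DESeq2 gave 3.75 for Il1b with an adjusted p of 0.0392 and was the only tool here to call one of the 10 genes in this comparison, among 102 genes (0.559%) it called in all. Nlrp3 averaged 2.68 ± 0.599 CPM with aspirin and 0.711 ± 0.367 CPM in the controls, a log2 fold change of 1.91 ± 0.57 (95% interval 0.62 to 3.20, adjusted p = 0.753 by edgeR). Its groups did not overlap, as for 5.54% of all genes tested in this direction. Il1rl1 averaged 3.94 ± 2.35 CPM with aspirin and 1.52 ± 0.415 CPM in the controls, a log2 fold change of 1.37 ± 0.48.

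The intervals of these 3 genes excluded 0, as they did, in this direction, for 3.09% of all genes at an unadjusted p under 0.05 (1183 genes, or 6.48%, in both directions). The other 7 genes had intervals that included 0. Among them, Il1a had a log2 fold change of 1.61 ± 1.28, Il1rn of 1.07 ± 0.95, Casp1 of 1.01 ± 0.62 and Il33 of 0.92 ± 0.78. The receptor pair was closer to 0, with 0.49 ± 0.37 for Il1r1 and 0.68 ± 0.46 for Il1rap. All 10 values were smaller without Aspirin replicate 1, by little for Il1b (3.52) and Nlrp3 (1.85). Il1a was then at 0.88, Il1rn at 0.86, Il1rl1 at 0.79, Casp1 at 0.22, Il33 at 0.05, Il1rap at 0.09, Il1r1 at 0.19 and Il18 at -0.12 in place of 0.63. Controls moved values too. Without Control replicate 1, Il1a was at 2.76, Il18 at 1.13 and Il33 at 1.37. Without Control replicate 2, Il1rn was at 0.55, Il33 at 0.48 and Il1r1 at 0.84, and without Control replicate 3, Il1rn was at 2.20. Without Aspirin replicate 3, Il1b was at 3.22 and Nlrp3 at 1.79.

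The combination of aspirin with hydrogel was set against untreated muscle next. None of the 10 genes passed the adjusted threshold in edgeR (0% of 18259 genes did), and 716 genes (3.92%) had an unadjusted p under 0.05, with 0 of the 10 among them. DESeq2 called 18 genes in all (0.0986%), and 0 of the 10. The fitted log2 fold changes were below 0 for 8 genes and above 0 for Il1a (0.09 ± 1.29) and Il1rl1 (0.26 ± 0.47). Their median was -0.53, beside -0.03 over all genes tested, 52.9% of which were below 0. Il1b averaged 0.682 ± 0.393 CPM in the hydrogel libraries and 1.66 ± 1.32 CPM in the controls, a log2 fold change of -1.26 ± 1.12 with a 95% interval of -3.79 to 1.27. Nlrp3 was at -0.11 ± 0.56 (95% interval -1.38 to 1.16), which leaves room for changes of more than 2-fold in either direction. Every gene of the 10 overlapped between these groups, where 13.2% of all genes did not.

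The hydrogel combination was then compared with aspirin alone, so that the hydrogel was the added component. All 10 genes had fitted log2 fold changes below 0, with a median of -1.51, beside -0.05 over all genes and 53.3% of genes below 0. No gene of the 10 passed the adjusted threshold in edgeR, nor did any other (0%), while 1996 genes (10.9%) had an unadjusted p under 0.05. This comparison and that of aspirin with control share the aspirin libraries, so high aspirin values enter both. Il1b averaged 0.682 ± 0.393 CPM in the hydrogel libraries and 22.2 ± 17.7 CPM in the aspirin libraries. Its log2 fold change was -5.00 ± 1.26 (95% interval -7.85 to -2.15, adjusted p = 0.453 by edgeR). DESeq2, which called 156 genes (0.854%), gave -5.04 for Il1b with an adjusted p of 0.000952 and called no other gene of the 10.

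Nlrp3 averaged 0.656 ± 0.309 CPM in the hydrogel libraries and 2.68 ± 0.599 CPM in the aspirin libraries, with a log2 fold change of -2.02 ± 0.57 and an adjusted p of 0.453 by edgeR. Il1r1 averaged 17.5 ± 5.73 CPM in the hydrogel libraries and 35.1 ± 11.5 CPM in the aspirin libraries (log2 fold change -1.004 ± 0.37). Il1rn averaged 3.47 ± 2.78 CPM in the hydrogel libraries and 14.1 ± 4.16 CPM in the aspirin libraries (-2.01 ± 0.98). Il1b, Nlrp3, Il1r1 and Il1rn were the 4 genes whose hydrogel libraries all lay below all aspirin libraries, as did 8.75% of all genes tested. Together with Casp1 (-1.56 ± 0.63) and Il1rl1 (-1.11 ± 0.47), all but Il1rn of these had an unadjusted p under 0.05, as did 7.61% of all genes in this direction. Without Aspirin replicate 1, Il1rl1 stood at -0.53 and Casp1 at -0.77, whereas Il1b stood at -4.79, Nlrp3 at -1.97, Il1rn at -1.81, Il1r1 at -0.70 and Il1a at -0.81. Without Hydrogel replicate 2, Il1a stood at -2.37 and Il1rn at -2.72, further from 0 than with all libraries. Scaling by library size alone moved the median gene by -0.46 in this comparison, and all 10 genes were below 0 under that scaling too.

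**Figure D2:**
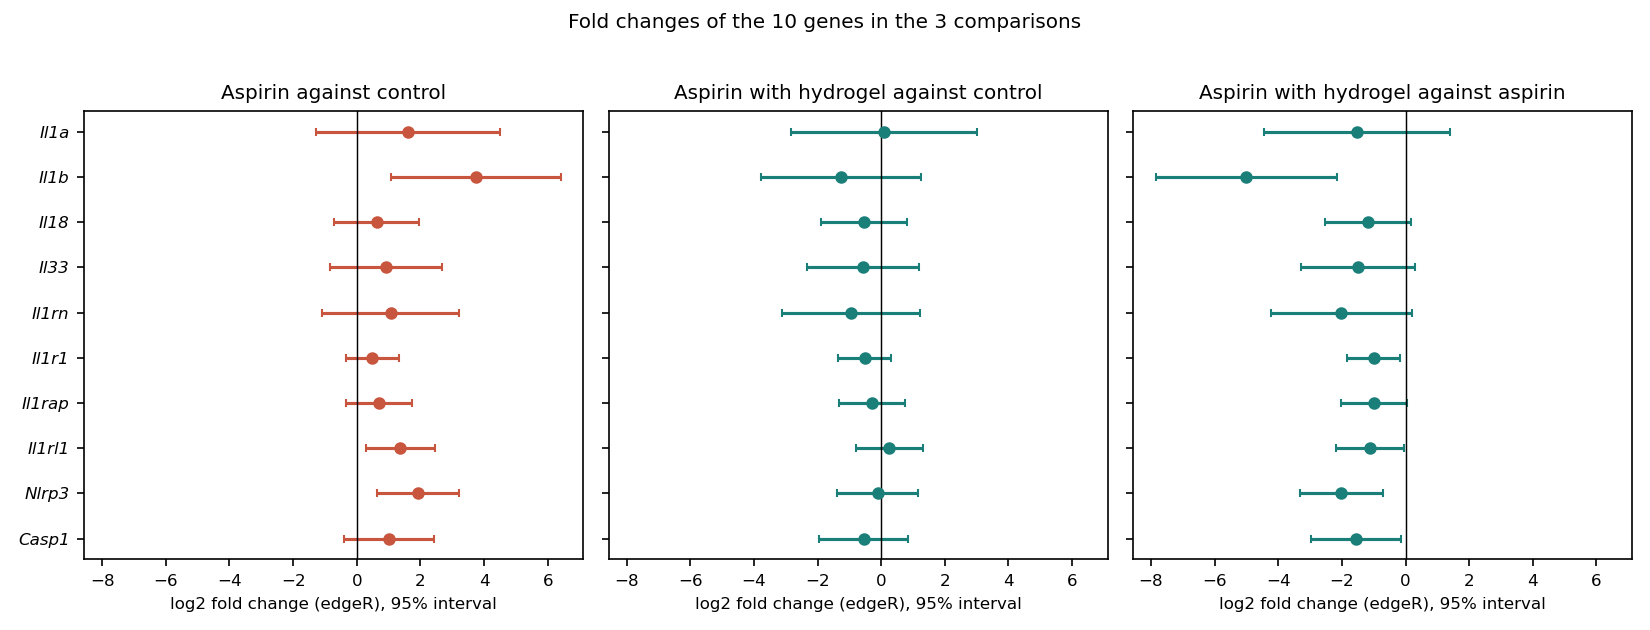
Log2 fold change of each of the 10 genes with its 95% interval from edgeR, for aspirin against control, aspirin with hydrogel against control, and aspirin with hydrogel against aspirin. Intervals exclude 0 for Il1b, Il1rl1 and Nlrp3 in the first panel, for none in the second and for Il1b, Il1r1, Il1rl1, Nlrp3 and Casp1 in the third.

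On log2 CPM over the 9 libraries, Il1b and Nlrp3 had a Pearson r of 0.94 (Spearman rho 0.83). The exact permutation p for r was 0.000934, or 0.0210 after Benjamini-Hochberg adjustment over the 45 pairs of genes, and for rho it was 0.00827, or 0.0691 adjusted. Without the 2 libraries farthest from the median of Il1b, r was 0.89. The receptor chains Il1r1 and Il1rap formed another pair, with r = 0.92 and rho = 0.92 (adjusted exact permutation p = 0.0210 and 0.0456), and r = 0.83 without the 2 farthest libraries. Across these pairs, Il1b and Il1r1 had r = 0.37 and rho = 0.18 (adjusted exact permutation p = 0.407 and 0.762). This r depended on single libraries, at 0.67 without the 2 farthest from the median and 0.07 without Aspirin replicate 1. Il1b and Il33 had r = 0.85 and rho = 0.90 (adjusted exact permutation p = 0.0324 and 0.0456), with r = 0.85 without the 2 farthest libraries. Il18 and Casp1 had r = 0.86 (adjusted exact permutation p = 0.0324) and rho = 0.73 (adjusted p = 0.117, exact), and r = 0.64 without the 2 farthest. Pearson r was above 0 for all 45 pairs, and for 33 of them without Aspirin replicate 1, whereas rho was -0.02 for Il1b and Il1rl1. Of the 45, r passed the adjusted threshold in 11 pairs and both measures in 3. The libraries come from 3 treatments, so these relations include differences between groups.

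Of the 13074 named genes averaging at least 1 CPM, the closest in pattern to Il1b over the 9 libraries were Prss35 (r = 0.99), the receptor gene of granulocyte colony-stimulating factor Csf3r (0.98) and the carboxylate transporter gene Slc13a3 (0.97). Those closest to Nlrp3 were Prss35 (0.96), the lectin gene Clec4a1 (0.96) and Inhba, a subunit of activin (0.96). Il1rn lay closest to the coagulation factor gene F10 (0.97), the amino acid transporter gene Slc7a7 (0.97) and Clec5a, a myeloid lectin (0.96). Closest to Il1rl1 was Mrc1, the macrophage mannose receptor (0.97), followed by Zbtb6 (0.97) and Mfsd14a (0.96). These r values describe genes picked for their likeness and carry no test, and for Mrc1 r was 0.82 without Aspirin replicates 1 and 2. Casp1 followed Hprt (0.996), Fbxl6 (0.99) and Crip1 (0.99), and Il18 followed Zfp36l2 (0.99), Hs3st1 (0.99) and Prps2 (0.98). Il33 followed Adra2a (0.95), Ptpn1 (0.94) and Gpr35 (0.93). Il1r1 followed Nts (0.93), Adora2b (0.93) and Vcan (0.92), and Il1rap followed Lpar2 (0.95), Brd8 (0.95) and Zfp157 (0.94).

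Markers of the leukocytes that make these cytokines varied between the same libraries. The 10 neutrophil markers, among them S100a8, Cxcr2 and Ly6g, summed to 38.3, 20.2 and 10.8 CPM in the hydrogel libraries and 435, 32.4 and 196 CPM in the aspirin libraries, against 122, 25.1 and 173 CPM in the controls. The libraries with the most Il1b, Aspirin replicates 1 and 3, had the highest neutrophil sums. In Control replicate 3, Mmp9 alone made up 105 of the 173 CPM. Csf3r, the list's member closest to Il1b in pattern, was at 5.61, 8.52 and 4.57 CPM in the hydrogel libraries and 30.6, 9.77 and 37.6 CPM in the aspirin libraries, against 8.61, 2.95 and 8.90 CPM in the controls. Its aspirin libraries lay above all others, as did those of Nlrp3, though by little between Aspirin replicate 2 (9.77 CPM) and Control replicate 3 (8.90 CPM). Csf3r is named here for its likeness to Il1b over these same libraries. The share of all genes with this split was not computed. Of the 9 neutrophil markers tested, Csf3r was the only 1 whose aspirin libraries all lay above the controls. Mmp9 was at -0.19 ± 1.00 on the log2 scale for aspirin against control. Ly6g, a defining marker, had no count in Hydrogel replicates 2 and 3, Aspirin replicate 2 and Control replicate 3. The 11 monocyte and macrophage markers summed to 779, 1070 and 493 CPM in the hydrogel libraries and 2426, 2234 and 1102 CPM in the aspirin libraries, against 862, 507 and 1347 CPM in the controls. None of the 11 was at 0 in any library. Markers of mast cells, a cell type that carries Il1rl1, summed to 28.3 to 45.6 CPM in the hydrogel libraries and 29.7 to 59.7 CPM in the aspirin libraries, against 39.9 to 45.8 CPM in the controls. Fibroblast markers summed to 3811 to 5869 CPM in the hydrogel libraries and 4806 to 9218 CPM in the aspirin libraries, against 5304 to 9072 CPM in the controls. The 7 endothelial markers, among them Pecam1 and Cdh5, summed to 411, 380 and 263 CPM in the hydrogel libraries and 192, 217 and 253 CPM in the aspirin libraries, against 500.2, 590 and 321 CPM in the controls. These sums were lower in every aspirin library than in the other 6, narrowly so between Aspirin replicate 3 and Hydrogel replicate 3 (253 and 263 CPM). This is the same split of libraries as for Nlrp3, with the opposite sign. For aspirin against control, all 7 had log2 fold changes below 0, 6 of them at an unadjusted p under 0.05 by edgeR (3.39% of all genes in this direction) and 4 with no overlap (5.44%). The single genes split less clearly for aspirin with hydrogel against aspirin. There 6 were above 0 and Cldn5 was at -0.09. Of the 6, 1 had an unadjusted p under 0.05 by edgeR (10.9% of all genes in both directions) and 2 had no overlap, a share not given for all genes. The part of cell composition in the gene levels was not tested, and in bulk muscle fewer cells of a type cannot be told apart from less RNA per cell.

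**Figure D3:**
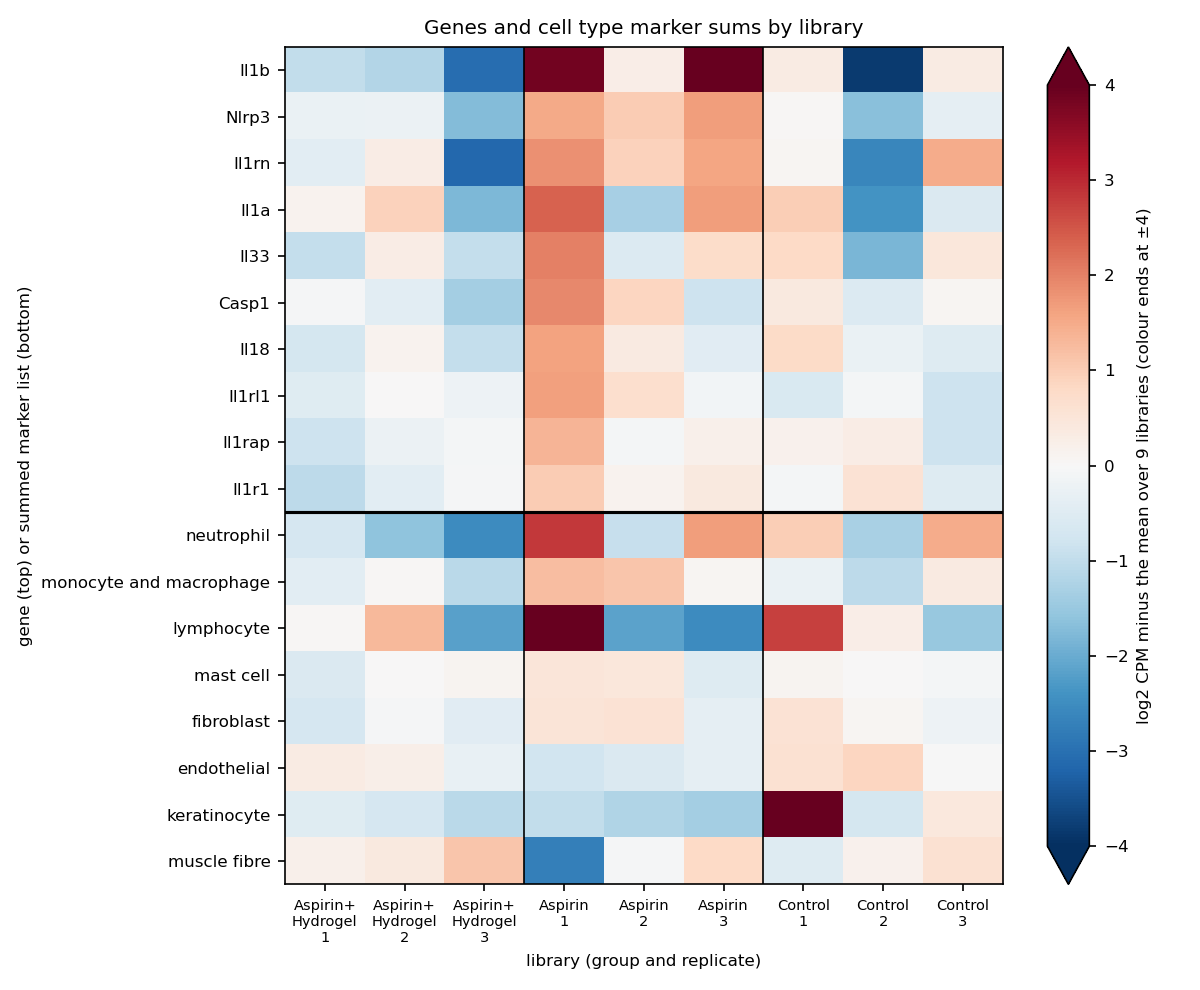
Log2 CPM minus the mean over the 9 libraries for the 10 genes (top, no counts set to the 3-count floor) and for summed cell type markers (bottom), by library; colours end at ±4. Il1b reaches 3.87 and 4.24 in Aspirin replicates 1 and 3 and -3.84 in Control replicate 2, and Aspirin replicate 1 holds the lowest muscle fibre sum.

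The balance of agonist and antagonist was read within each library as the ratio of FPKM values. Il1rn stood at 1.34, 2.63 and 1.06 times Il1b in the hydrogel libraries, 0.217, 1.44 and 0.141 times in the aspirin libraries and 0.751, 2.34 and 2.03 times in the controls. Il1rn FPKM exceeded Il1b FPKM in 6 libraries and lay below it in Control replicate 1 and in Aspirin replicates 1 and 3, where the ratio was lowest. The gene length behind FPKM is not given in the sources used here. Il1rn has 6 annotated transcripts over 5535 exonic bases, and Il1b has 3 over 1907. Whether a ratio lies above 1 depends on that length, since Control replicate 1 had 287 Il1rn and 131 Il1b counts. The order of libraries by ratio does not depend on it. On the log2 scale, with 0.1 FPKM added to both genes, the ratio averaged 0.52 ± 0.60 in the hydrogel libraries, -1.49 ± 1.73 in the aspirin libraries and 0.37 ± 0.68 in the controls (SD, n = 3 each). The groups overlapped in all 3 pairings. Il1r2, the decoy receptor that binds IL-1 without signalling, stood at 0.330, 0.563 and 0.280 times Il1r1 in the hydrogel libraries, 1.35, 0.944 and 0.780 times in the aspirin libraries and 0.446, 0.219 and 0.305 times in the controls. The decoy was higher relative to its signalling partner in every aspirin library than in any library of either other group. How often ratios of other genes split this way was not computed. Il18bp, which captures IL-18, stood at 0.405 to 0.609 times Il18 in the hydrogel libraries, 0.279 to 0.780 times in the aspirin libraries and 0.248 to 0.586 times in the controls, and these ranges overlapped.

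**Figure D4:**
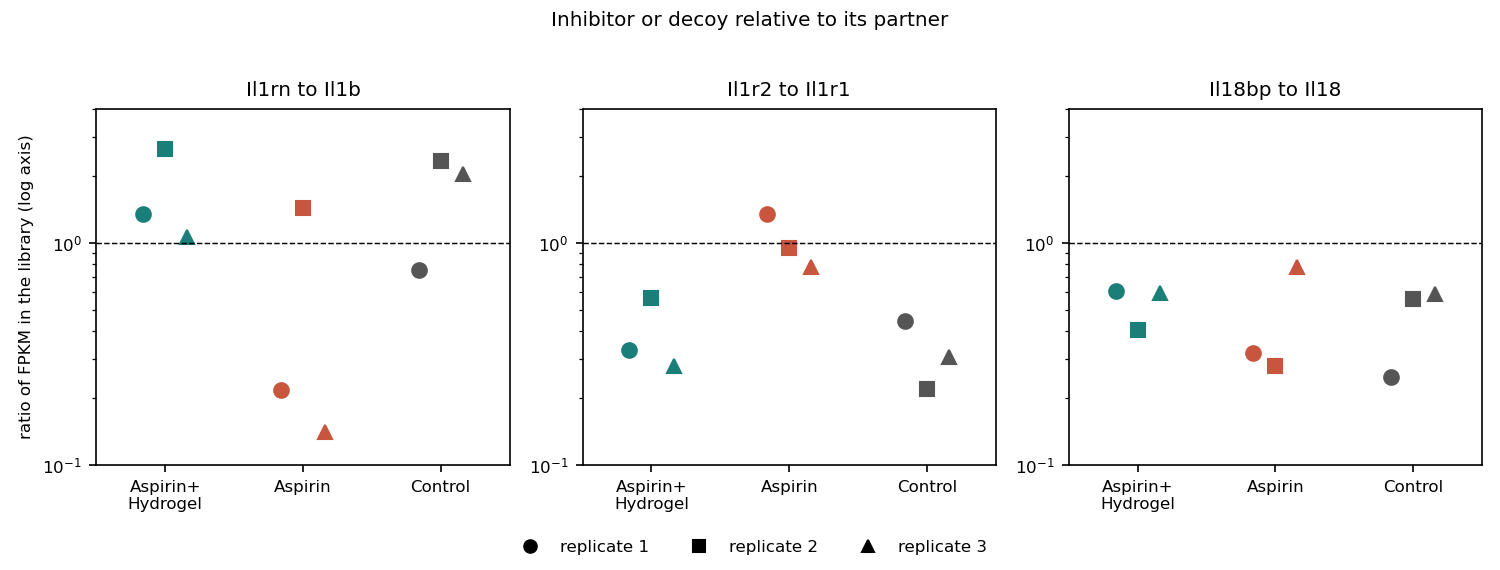
Ratio of FPKM within each library (log axis, dashed line at 1) for Il1rn to Il1b, Il1r2 to Il1r1 and Il18bp to Il18, by group, with marker shape giving the replicate. Il1r2 to Il1r1 lies at 0.780 to 1.35 in the aspirin libraries and at 0.219 to 0.563 in the other 6; Il1rn to Il1b is at 0.217 and 0.141 in Aspirin replicates 1 and 3.

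The wider pathway was read from 65 further genes in 5 lists, of which 55 passed the filter, and 0 passed the adjusted threshold in edgeR in any comparison. At an unadjusted p under 0.05, edgeR had 15 of them for aspirin against control, 2 for aspirin with hydrogel against control and 21 for aspirin with hydrogel against aspirin. Over all genes the shares were 6.48%, 3.92% and 10.9%, so the 2 genes of the second comparison are near the share of all genes. DESeq2 called 4 in the first of these (Il1r2, Cxcl2, Cxcl5 and Saa3, all higher), 0 in the second and 6 in the third (Il1r2, Irak3, Cxcl5, Saa3, Lcn2 and Mmp3, all lower), where it called 0.559%, 0.0986% and 0.854% of all genes. Between aspirin and control, 41 of the 55 were above 0 on the log2 scale (median 0.60), and 11 were clear of the controls on the higher side and 1 on the lower side. For aspirin with hydrogel against control, 41 were below 0 (median -0.30), with 0 clear on the higher side and 3 on the lower side. For aspirin with hydrogel against aspirin, 47 were below 0 (median -1.07), with 0 and 13 clear. The medians over all genes tested were 0.05, -0.03 and -0.05 in these comparisons, and 5.54%, 6.3% and 8.75% of all genes were clear on the side where most of these genes were.

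Il1r2, the decoy, had the smallest p of the receptor list in both comparisons that involve aspirin alone. It was at 1.16, 3.05 and 1.94 CPM in the hydrogel libraries and 19.4, 7.43 and 7.29 CPM in the aspirin libraries, against 3.01, 2.37 and 1.57 CPM in the controls. Every aspirin library exceeded all 6 others, a split whose share over all genes was not computed. Its log2 fold change was 2.29 ± 0.53 for aspirin against control (adjusted p = 0.747 by edgeR) and -2.47 ± 0.53 for aspirin with hydrogel against aspirin (adjusted p = 0.453 by edgeR). Il1r2 lies at the start of a row of receptor genes on the plus strand of chromosome 1 that continues with Il1r1, Il1rl2, Il1rl1, Il18r1 and Il18rap. Il1rl2, the IL-36 receptor, which lies between Il1r1 and Il1rl1, averaged 9.98 ± 2.71 CPM in the hydrogel libraries and 12.3 ± 2.39 CPM in the aspirin libraries, against 13.1 ± 6.02 CPM in the controls. The subunits of the IL-18 receptor, Il18r1 and Il18rap, were highest in Aspirin replicate 1, at 8.64 and 8.38 CPM.

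Among adaptors and kinases, Irak3, an inhibitory kinase of the receptor complex, averaged 14.4 ± 2.36 CPM with aspirin and 8.26 ± 0.0520 CPM in the controls, with no overlap between these groups. Myd88, the shared adaptor, averaged 10.5 ± 1.37 CPM in the hydrogel libraries and 21.8 ± 6.30 CPM in the aspirin libraries, against 15.9 ± 3.18 CPM in the controls. Hydrogel libraries lay below both other groups for Myd88, with log2 fold changes of -1.05 ± 0.26 against aspirin and -0.60 ± 0.26 against control. Irak4, the kinase next to Myd88, was at -0.85 ± 0.36 for aspirin with hydrogel against aspirin, also with no overlap. The median over the 11 adaptors and kinases was -0.09 for aspirin against control, -0.13 for aspirin with hydrogel against control and -0.02 for aspirin with hydrogel against aspirin.

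The inflammasome list held other sensors and the execution step. Nlrc4, a sensor of bacterial proteins, averaged 4.76 ± 4.10 CPM with aspirin and 1.15 ± 0.605 CPM in the controls (log2 fold change 2.04 ± 0.75), and its partners Naip2 and Naip5 were at 1.17 ± 0.46 and 1.05 ± 0.40. Aspirin libraries lay above all controls for Nlrc4 and Naip2 but not for Naip5, and the Naip genes are close copies of each other, so their counts are uncertain. Pycard, the adaptor that joins sensors to caspase-1, averaged 3.81 ± 2.14 CPM in the hydrogel libraries and 12.8 ± 10.4 CPM in the aspirin libraries, a log2 fold change of -1.75 ± 0.70. Panx1, a membrane channel, was at -1.30 ± 0.44 and Mefv, which encodes pyrin, at -3.01 ± 1.04 in the same comparison. For Pycard and Panx1 the hydrogel libraries lay below all aspirin libraries, and for Mefv they overlapped. Between hydrogel and control, the genes of smallest p in this list were Panx1 (-0.74 ± 0.44), Txnip (-0.90 ± 0.54, and -0.89 ± 0.54 for aspirin against control) and Casp8 (-0.55 ± 0.49), each with overlapping groups.

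Genes that IL-1 is known to induce were read as a last list. Cxcl5, a neutrophil-attracting chemokine, averaged 14.2 ± 12.8 CPM with aspirin and 0.234 ± 0.183 CPM in the controls, with a log2 fold change of 5.88 ± 1.40. Saa3, an acute-phase protein, averaged 391 ± 440.0 CPM with aspirin and 3.22 ± 3.13 CPM in the controls, and Cxcl2, another neutrophil chemokine, was at 4.03 ± 1.19 on the log2 scale. All 3 overlapped between aspirin and control. Mmp3, a matrix protease, averaged 19.9 ± 8.80 CPM in the hydrogel libraries and 139 ± 124 CPM in the aspirin libraries, and its libraries did not overlap. Steap4 averaged 58.7 ± 4.27 CPM in the hydrogel libraries and 67.3 ± 17.5 CPM in the aspirin libraries, against 99.3 ± 13.1 CPM in the controls. Every library of both treated groups lay below every control for Steap4. Nfkbia, the NF-kB inhibitor, averaged 25.2 ± 8.28 CPM in the hydrogel libraries and 31.97 ± 18.4 CPM in the aspirin libraries, against 41.6 ± 6.83 CPM in the controls. For Nfkbia the hydrogel libraries lay below all controls and the aspirin libraries overlapped with them. Of the 19 genes of this list that were tested, 15 were above 0 for aspirin against control (54% of all genes). For aspirin with hydrogel, 15 were below 0 against control (52.9%) and 18 against aspirin (53.3%). The 22 genes of the list summed to 150, 216 and 140 CPM in the hydrogel libraries and 1607, 241 and 598 CPM in the aspirin libraries. The controls were at 322, 252 and 250 CPM. Aspirin replicates 1 and 3 thus lay above every control, and Aspirin replicate 2 below every control. The sum leans on its most abundant genes and does not describe the list as a whole. With aspirin, Saa3 and Mmp3 averaged 391 and 139 CPM, and in the controls Steap4 and Nfkbia averaged 99.3 and 41.6 CPM.

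Of the ligands of the IL-36 branch, which are known from epithelia, Il36g alone had counts outside Control replicate 1. Il36rn and Il36b had counts in Control replicate 1 alone, at 2.66 and 1.18 CPM, and Il36a at 0.111 CPM in that library too, which is the one that held 133 CPM of keratinocyte markers. Il36g was at 0.0484, 0 and 0.1001 CPM in the hydrogel libraries and 2.02, 0.211 and 3.72 CPM in the aspirin libraries, against 1.33, 0 and 0.553 CPM in the controls. Aspirin replicates 1 and 3 were again the high libraries. Each hydrogel library, at or under the level of 3 counts, lay below each aspirin library, as for 8.75% of all genes tested. For aspirin with hydrogel against aspirin, Il36g had an unadjusted p of 0.0137 by edgeR (adjusted p = 0.453). Of all genes, 7.61% had an unadjusted p under 0.05 in this direction. In Aspirin replicates 1 and 3 the keratinocyte markers summed to 0.992 and 0.772 CPM, and the cell source of Il36g was not tested. Il1rapl1 and Il1rapl2, neuronal relatives of the receptors, had no count in any library.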

How the data were processed

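The authors deposited a table of raw counts per Ensembl gene with 1 column per library, and a table of FPKM values (per kilobase and library size) for the same libraries, per the file headers. Per the labels' protocols, leg muscle RNA was purified by RNeasy kit and made into SMARTER mRNA libraries. The submitters' processing notes name mm10 as the build. Aligner, counter, annotation and strand setting: not given in the sources used here. Counts divided by library totals were proportional to FPKM within 7.03% for every one of the 10 genes.

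Groups came from the titles. Titles carry a code of 2 numbers whose meaning is not given. The first is 8 for hydrogel, 7 for Aspirin replicates 1 and 2, 10 for Aspirin replicate 3 and 9 for controls, so no 2 groups share one and no comparison could be made within it. The second is shared between groups (1 and 3 by hydrogel and aspirin, 5 by Hydrogel replicate 3 and Control replicate 3, 4 by Aspirin replicate 3 and Control replicate 2). edgeR 4.0.16 (R 4.3.3, robust quasi-likelihood test, TMM scaling, filterByExpr with minimum count 10 and total 15, all 9 libraries in 1 fit) tested 18259 genes, with Benjamini-Hochberg adjustment over all of them at 0.05. The common biological coefficient of variation was 0.503. Levels are CPM on TMM-scaled library sizes, standard errors come from the quasi-likelihood F, and ratios are ratios of deposited FPKM. The procedure was also run on simulated counts with known changes, drawn without a library that stands apart. Its outcome is not given here, so that run adds nothing to the reading of the absent edgeR calls. DESeq2 1.42.0, scaling by library size, no filter, fits of 2 groups, a replicate block, left-out libraries and other pseudocounts (0.01 and 0.5) were alternatives. Coordinates are from GENCODE vM21 (same build, 1-based). Every pair of libraries differed by more than sampling noise (chi-square per degree of freedom at least 70.5), so none repeats the reads of another. Each was counted as 1 sample, but this measure cannot tell whether libraries come from separate animals.

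The members and gene lists were chosen with earlier results of these data known. All 10 members are named. From each list, the text names for each comparison up to 3 genes, by unadjusted p, among those with a mean of 1 CPM or more, and for each member at that level the 3 genes of highest Pearson r. Genes without a symbol were left out there. Sigirr, Irak2, Tab2 and Nfkbiz met the rule on p and are named only here, each with overlapping groups. For aspirin with hydrogel against control, Irak2 was at -0.54 ± 0.48, Tab2 at 0.32 ± 0.32 and Nfkbiz at -0.87 ± 0.53 (log2 fold change). Sigirr was at 0.51 ± 0.83 for aspirin against control and -0.81 ± 0.84 for aspirin with hydrogel against aspirin. Lcn2, Il36 genes, Il1f10, Il1rapl1, Il1rapl2, Ly6g, Csf3r, Mmp9 and other values of the receptor row were chosen after their values were seen. Same-numbered libraries of aspirin and control deviated together (r = 0.62, 0.13 and 0.26), which by the rule used here pairs them, and the block changed no call there, but for hydrogel they did not in replicate 2 (-0.24 with control, -0.44 with aspirin), and the labels do not say that a number marks a shared litter or day.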

Additional observations from a re-analysis of the deposited data

How the results depend on the processing

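Of 360 recomputed fold changes of the 10 genes, 348 kept their direction and their side of the threshold, 10 changed direction and 2 passed the threshold, both for Il1b in DESeq2 (3.75 for aspirin against control, -5.04 for aspirin with hydrogel against aspirin). The cause of the changes of direction was not tested. Il1a for aspirin with hydrogel against control was -0.15 with library size alone, and ran from -0.75 to 1.24 with 1 library left out (below 0 without Control replicate 2, Control replicate 3 or Hydrogel replicate 2). In that comparison, Nlrp3 ran from -0.49 to 0.27 (above 0 without Control replicate 1 or Hydrogel replicate 3) and Il1rn from -1.65 to 0.15 (above 0 without Control replicate 3). Il18 for aspirin against control ran from -0.12 (without Aspirin replicate 1) to 1.13. Without Aspirin replicate 1 and Hydrogel replicate 3 together, Il18 was at -0.11 for aspirin against control and Nlrp3 at 0.23 for aspirin with hydrogel against control. With 1 library left out, the ranges were 3.20 to 4.27 for Il1b and 1.55 to 2.29 for Nlrp3 (aspirin against control), and -5.53 to -4.51 and -2.26 to -1.71 (aspirin with hydrogel against aspirin).

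Over all genes, DESeq2 called 102 for aspirin against control, 18 for aspirin with hydrogel against control, 156 for aspirin with hydrogel against aspirin and 151 for any difference, where edgeR called 0 in each (1183, 716, 1996 and 1272 at an unadjusted p under 0.05). DESeq2 called 1 member in the first and 1 in the third. In edgeR, leaving out 1 library gave 0 to 2 calls for aspirin with hydrogel against aspirin (2 without Aspirin replicate 3) and 0 to 1 for any difference (1 without Aspirin replicate 2), and 0 members throughout. Counts at an unadjusted p under 0.05 then ran from 618 (without Control replicate 2) to 2733 (without Aspirin replicate 3) for aspirin against control, and from 900 (without Hydrogel replicate 3) to 4239 (without Aspirin replicate 3) for aspirin with hydrogel against aspirin. With the replicate block, 1 gene was called for aspirin with hydrogel against aspirin and none of the 10 members in any comparison. Blocked, Il1b stood at 3.72, -0.36 and -4.08 in the 3 comparisons, and no call on a member changed. Scaling by library size alone moved the median gene by 0.23, -0.23 and -0.46. All 81 recomputed differences of the FPKM ratios moved by less than 1 SD between replicates, a wide margin where replicates differ much. With 1 library left out, the log2 difference for Il1rn to Il1b ran from -2.85 to -1.22 for aspirin against control. For aspirin with hydrogel against control it changed sign (-0.23 to 0.44). Il18bp to Il18 changed sign for aspirin against control (-0.54 to 0.17) and for aspirin with hydrogel against control (-0.10 to 0.51). Il1r2 to Il1r1 ran from 1.35 to 1.83 for aspirin against control. Depth limits Il1a, with 0 to 94 counts per library, and Il1b in its low libraries.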
